A study of Brassica napus with 33 samples.

Results

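The genes described here are the phosphorus (P) side of a root transcriptome of oilseed rape (Brassica napus): 30 genes of the 101040 counted. The study's ion transport list assigns 26 of them to P, and the other 4 are glycosyl transferase genes that the study lists for P deprivation. By the annotation the 26 fall into 11 phosphate permeases, 10 proteins with SPX and EXS domains, 3 major facilitator proteins without the permease annotation and 2 mitochondrial carriers. Wild-type plants of the cultivar Trezzor grew hydroponically for 24 days on a complete solution and then stayed on it as controls or lost a single element. Roots were harvested at 10 days from plants deprived of P, N, S, K, Ca or Mg and from controls of that age (21 libraries), and at 22 days from plants deprived of Mn, Co or Cl and from their own controls (12 libraries), with 3 libraries in each of the 11 conditions. The study describes each 10-day replicate as a pair of plants, and for 22 days the sources used here do not state it, so p-values may measure only the spread between these libraries.

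Plants take up phosphate through proton-coupled permeases of the plasma membrane, which low phosphate induces in the roots of many species. SPX domains bind inositol pyrophosphates, signals of the phosphate status of the cell, and proteins that join SPX and EXS domains include PHO1, which in Arabidopsis loads phosphate into the xylem. Mitochondrial phosphate carriers bring phosphate into the matrix, and plants short of P replace part of their phospholipids with galactolipids and sulfolipids, whose head groups are added by glycosyl transferases. The annotation places each gene in a family and does not assign it one of these roles, which are those of the families.

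The members were drawn from genes that the study called in the 10-day libraries, and the glycosyl transferases were drawn from the contrast of P deprivation with the control. All 10-day differences, and the difference between the 22-day and 10-day controls, are therefore given as descriptions: their calls come from the fit over all genes, were run on values that the choice used, and support nothing here. Only the Cl, Co and Mn libraries with their own controls played no part in the choice, and these are tested. A gene is called where the Benjamini-Hochberg adjusted p of the edgeR quasi-likelihood test is at most 0.05 over all genes tested. Levels are CPM, counts scaled to the size of the library after TMM normalization (trimmed mean of M-values), and each value after ± beside a log2 fold change is its standard error with n = 3 libraries in each condition.

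The libraries held 10115284 to 22841765 counts on genes at 10 days and 11765941 to 22053289 at 22 days. At these depths 3 counts, taken as the floor of a library, equal 0.138 to 0.291 CPM. Read pairs that mapped to several places were left out by the authors, so near-identical copies in the A and C subgenomes lose counts and their values are uncertain. No gene marking a root cell type is annotated in the sources used, and the roots could be checked only with BnaA01g28200D, the photosystem I gene PsaH, which stood at 0.273 to 17.7 CPM over the 33 libraries and was highest under K deprivation (6.81 to 17.7 CPM) and N deprivation (4.67 to 11.1 CPM). Its part in the values under K and N deprivation was not tested. In whole roots, fewer cells of a type and less RNA per cell cannot be told apart.

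Under P deprivation 22 of the 30 members were called, 17 higher and 5 lower, where 29.3% of all 56667 genes tested at 10 days were called (15.1% higher, 14.3% lower). N deprivation gave 12 called members (20.1% of all genes), 7 of them higher (9.00%) and 5 lower (11.1%). Ca deprivation gave 9 (26.5%), of which 5 were higher (12.6%) and 4 lower (13.9%). There were 2 under Mg deprivation (3.58%), both higher (2.34%), 2 under S deprivation (8.84%), 1 higher (4.22%) and 1 lower (4.63%), and 1 under K deprivation (1.26%), which was higher (0.916%). The rule used these contrasts, and nothing is read from the counts. The split by number of deprivations was not counted over all genes, and nothing is read from it either. Of the 30 members 12 were called under 1 deprivation, 7 under 2, 6 under 3, 1 under 4 and 4 under none. For the last 4, BnaA06g33780D, BnaC05g10300D, BnaC06g30650D and BnaC08g39940D, all annotated SPX and EXS, the smallest adjusted p over the 6 deprivations lay outside the threshold, from 0.0630 to 0.118. Nearest to it on the inside were BnaA06g19110D (0.0214, S deprivation) and BnaC03g18410D (0.0131, P deprivation).

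**Figure D1:**
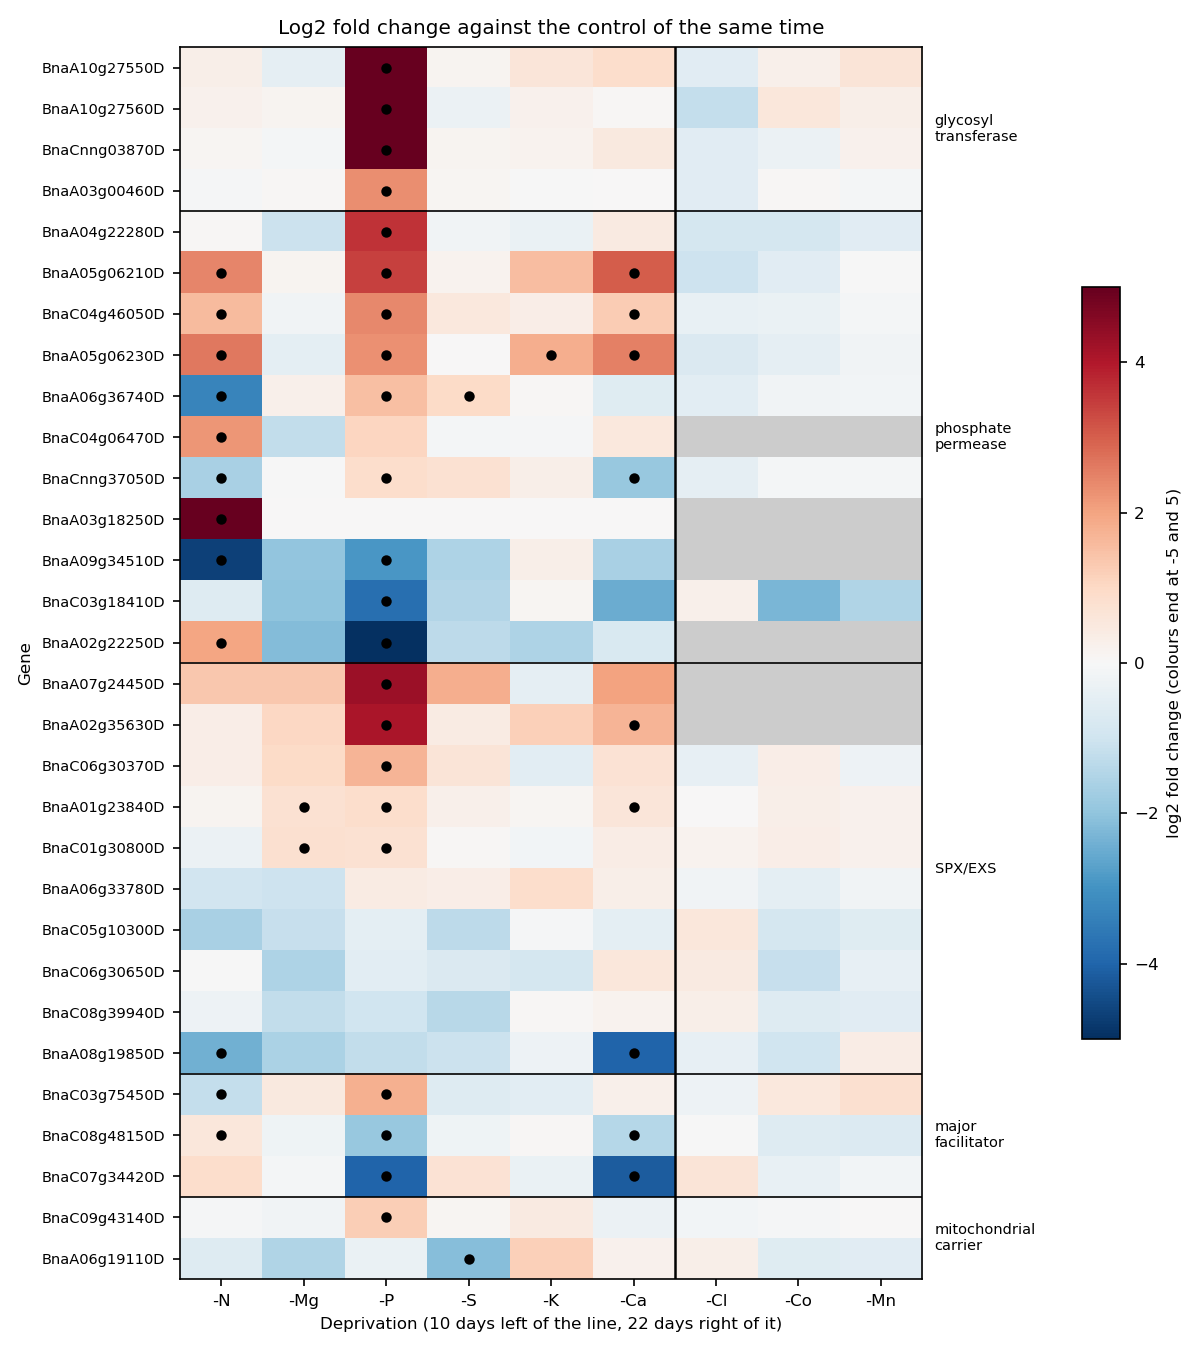
Log2 fold change of each of the 30 members (rows, grouped by annotation and ordered by the value under P deprivation) against the control of the same time under 9 deprivations (columns). Colours run from -5 (blue) to 5 (red), dots mark called genes, grey cells were not tested, and BnaA03g18250D had 0 counts in both groups in its white cells. The P column holds 22 dots and the Cl, Co and Mn columns none.

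The condition with the highest mean at 10 days was P deprivation for 15 members, N deprivation for 6, K deprivation for 4, Ca deprivation and the control for 2 each, and Mg deprivation for 1. The 3 libraries without P lay wholly above the controls for 19 members (21.2% of all genes) and wholly below for 5 (19.1%). The corresponding counts were 8 (17.9%) and 6 (17%) for N, 7 (19.7%) and 7 (20.2%) for Ca, 6 (13.8%) and 2 (11.4%) for S, 3 (9.55%) and 7 (8.30%) for Mg, and 3 (8.17%) and 0 (7.45%) for K deprivation. Again the rule used these libraries, and nothing is read from the counts. The N libraries lay above every other 10-day library for 4 members (1.62% of all genes), and the P libraries for 10 (4.56%). All 3 libraries without P lay above each of the 30 other libraries, those of 22 days included, for 10 members, where 4.26% of all genes tested did so. These 10 were the 4 glycosyl transferases, the permeases BnaA04g22280D and BnaC04g46050D, the SPX and EXS genes BnaA07g24450D and BnaA02g35630D, the major facilitator gene BnaC03g75450D and the mitochondrial carrier gene BnaC09g43140D.

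The glycosyl transferase genes were high without P and close to the controls in every other deprivation at 10 days, where none was called. They were chosen as specific to P deprivation, so this 10-day pattern was part of the choice and nothing is read from it. The study's text places these genes in sulfolipid synthesis. BnaA10g27550D stood at 25.8, 21.1 and 20.8 CPM without P and at 0.392, 0.169 and 0.216 CPM in the controls, a log2 fold change of 6.39 ± 0.36 (83.8-fold). In the remaining 10-day libraries it stood at 0.255, 0.2596 and 0.407 CPM without N, 0.283, 0.0923 and 0.232 without Mg, 0.176, 0.291 and 0.409 without S, 0.379, 0.643 and 0.153 without K and 0.682, 0.316 and 0.515 without Ca. The libraries without P did not overlap any other, and those others reached 0.682 CPM at 10 days.

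BnaA10g27560D, which carries the next locus number, gave 26.8, 26.1 and 20.1 CPM without P against 0.471, 0.253 and 0.647 CPM in the controls (log2 fold change 5.68 ± 0.46, 51.2-fold). Its level was 0.255, 0.649 and 0.6401 CPM without N, 1.13, 0.185 and 0.3096 without Mg, 0.468, 0.389 and 0.273 without S, 0.303, 0.715 and 0.612 without K and 0.511, 0.211 and 0.772 without Ca. In the controls BnaA10g27550D had 5, 2 and 3 counts and BnaA10g27560D had 6, 3 and 9, so their folds rest on few control counts. At 22 days, BnaA10g27550D gave 0.795, 0.873 and 0.314 CPM in the controls, 0.661, 0.247 and 0.436 without Cl, 1.37, 0.429 and 0.551 without Co and 1.14, 1.19 and 0.731 without Mn. For BnaA10g27560D the corresponding values were 0.939, 1.02 and 0.5498, then 0.397, 0.3299 and 0.382, 2.18, 0.773 and 0.751 and 1.002, 1.25 and 0.731 CPM. The highest library of either gene outside P deprivation was replicate 1 of Co deprivation.

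BnaCnng03870D reached 58.7, 52.3 and 46.1 CPM without P, against 1.41, 1.94 and 1.51 CPM in the controls (log2 fold change 5.01 ± 0.25, 32.2-fold). Without the other elements it was at 1.19, 1.75 and 2.09 CPM (N), 1.27, 1.34 and 1.94 (Mg), 2.22, 1.46 and 1.57 (S), 1.51, 2.57 and 1.301 (K) and 1.87, 2.58 and 2.12 (Ca), and at 22 days at 2.46, 1.600 and 2.199 CPM in the controls, 0.859, 1.98 and 1.53 (Cl), 1.84, 1.37 and 1.802 (Co) and 2.29, 2.32 and 2.52 (Mn). No library with P passed 2.58 CPM. BnaA03g00460D had the smallest difference of the 4, from 28.9, 20.1 and 23.7 CPM in the controls to 136, 117 and 109 CPM without P, a log2 fold change of 2.31 ± 0.24 (4.96-fold). Its other 10-day values were 18.8, 21.4 and 28.8 CPM without N, 36.7, 14.7 and 23.8 without Mg, 28.1, 23.3 and 26.04 without S, 24.00, 23.9 and 24.4 without K and 22.5, 24.2 and 25.4 without Ca. Replicates 1 and 2 of Mg deprivation were the highest and the lowest of the libraries with P.

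**Figure D2:**
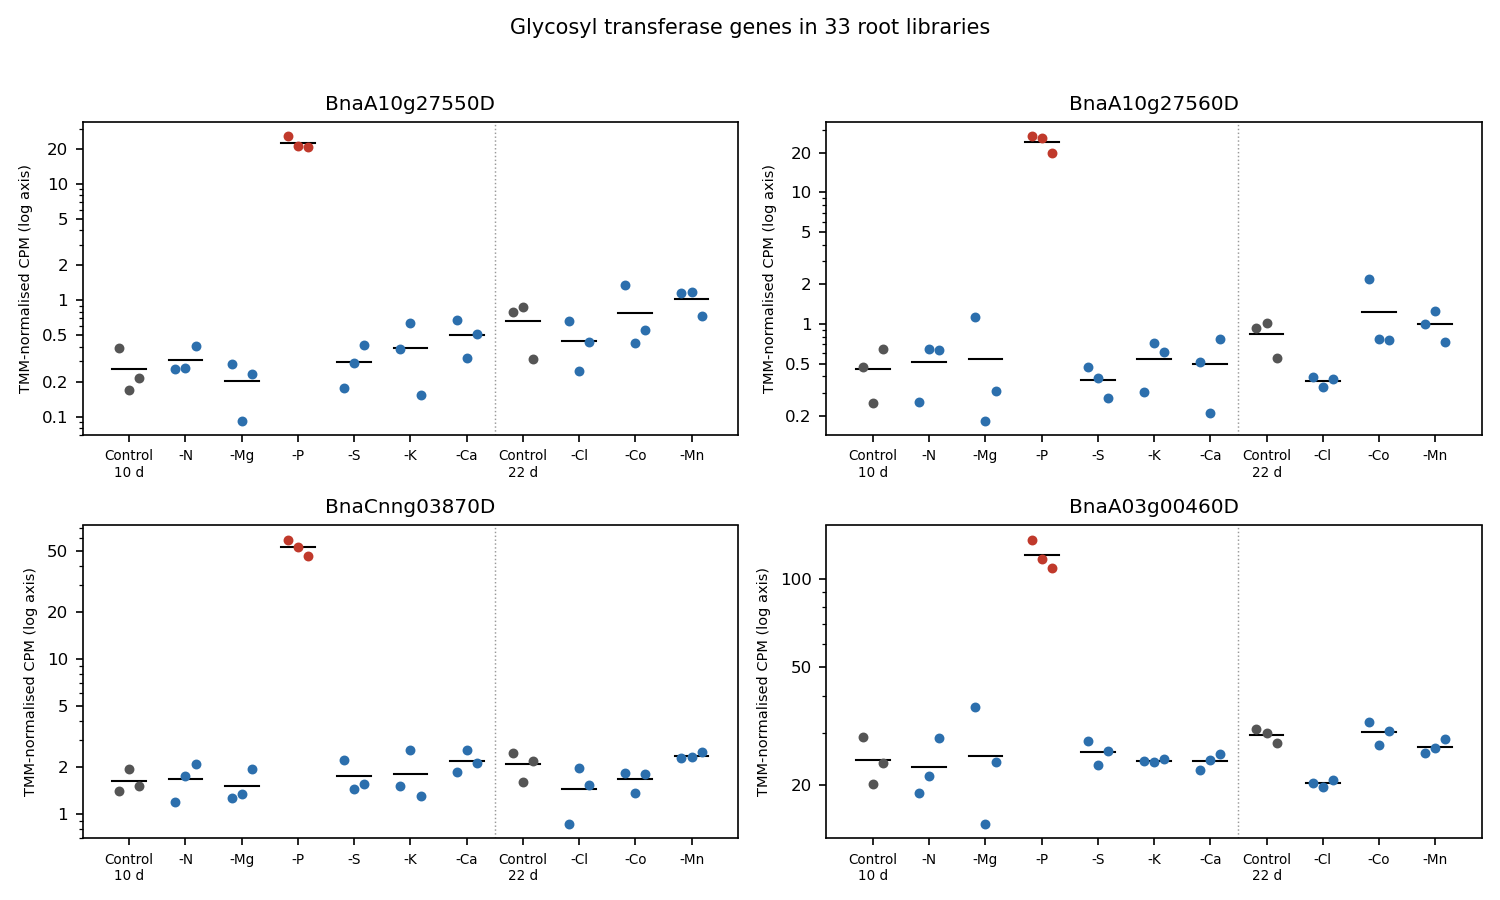
TMM-normalised CPM (log axis) of the 4 glycosyl transferase genes in the 33 libraries, 3 points for each condition with a black line at the mean and a dotted line between the 10-day and 22-day samples. Controls are grey, P deprivation red and the other deprivations blue. The red points stand apart from the other 30 libraries in all 4 panels.

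The 11 phosphate permease genes, the class of the root uptake systems, did not share a single pattern. P deprivation had 6 of the 11 called higher and 3 lower, and so did N deprivation, but only in part for the same genes. BnaA05g06230D, BnaA05g06210D and BnaC04g46050D were called higher under N, P and Ca deprivation alike, BnaA04g22280D under P deprivation alone, BnaA03g18250D and BnaC04g06470D under N deprivation alone, and BnaCnng37050D and BnaA06g36740D were called lower under N and higher under P deprivation.

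BnaA04g22280D had the highest log2 fold change of the permease genes under P deprivation, 3.63 ± 0.40, from 4.47, 1.77 and 2.23 CPM in the controls to 25.2, 36.7 and 43.5 CPM without P. In the other 10-day libraries it ran at 3.82, 2.14 and 2.91 CPM (N), 1.77, 1.799 and 0.3096 (Mg), 3.16, 1.85 and 2.39 (S), 2.35, 1.93 and 2.37 (K) and 4.94, 4.27 and 2.32 (Ca). The lowest library was replicate 3 of Mg deprivation, and each of these groups overlapped the controls. At 22 days it stood at 7.15, 4.58 and 2.12 CPM in the controls, 2.58, 2.97 and 2.18 without Cl, 4.16, 1.803 and 1.45 without Co and 2.15, 4.16 and 2.76 without Mn.

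BnaA05g06210D and BnaA05g06230D lie close by locus number and were both high under several deprivations. BnaA05g06210D gave 7.16, 9.15 and 8.52 CPM without P (log2 fold change 3.43 ± 0.50), 7.33, 5.32 and 5.79 without Ca (3.02 ± 0.51) and 2.38, 4.67 and 5.295 without N (2.46 ± 0.51), against 0.549, 1.096 and 0.647 CPM in the controls. Without K it gave 0.984, 4.36 and 1.22 CPM, without Mg 1.201, 0.969 and 0.232 and without S 0.936, 0.6799 and 0.886. The libraries without P overlapped those without Ca and stayed above those without N, and only replicate 2 of K deprivation reached the range without N. At 22 days the values were 1.300, 1.24 and 1.26 CPM in the controls, 0.3304, 0.825 and 0.709 without Cl, 0.751, 0.687 and 1.05 without Co and 0.9303, 2.14 and 0.569 without Mn.

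BnaA05g06230D was the member called under the most deprivations, 4 of 6. It stood at 27.4, 30.6 and 36.1 CPM without N, 32.2, 28.2 and 24.5 without Ca, 23.9, 25.9 and 23.7 without P and 9.995, 28.4 and 14.8 without K, against 5.097, 5.14 and 4.89 CPM in the controls. The log2 fold changes were 2.65 ± 0.29, 2.5 ± 0.29, 2.28 ± 0.29 and 1.81 ± 0.29 in that order, and the libraries without Ca overlapped both those without N and those without P, which did not overlap each other. Without Mg it was at 4.17, 3.64 and 2.94 CPM, below all controls without a call, and without S at 6.49, 3.400 and 5.25 CPM. In replicate 2 of K deprivation this gene, BnaA05g06210D and BnaC04g46050D were each at the highest of the 3 K libraries. BnaC04g46050D followed the order P (53.1, 51.5 and 51.4 CPM), N (24.6, 29.3 and 32.3), Ca (25.05, 22.4 and 21.4) and control (10.9, 7.42 and 10.7), with log2 fold changes of 2.42 ± 0.28, 1.58 ± 0.27 and 1.26 ± 0.27. Its P libraries lay above all its N libraries, which overlapped those without Ca.

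**Figure D3:**
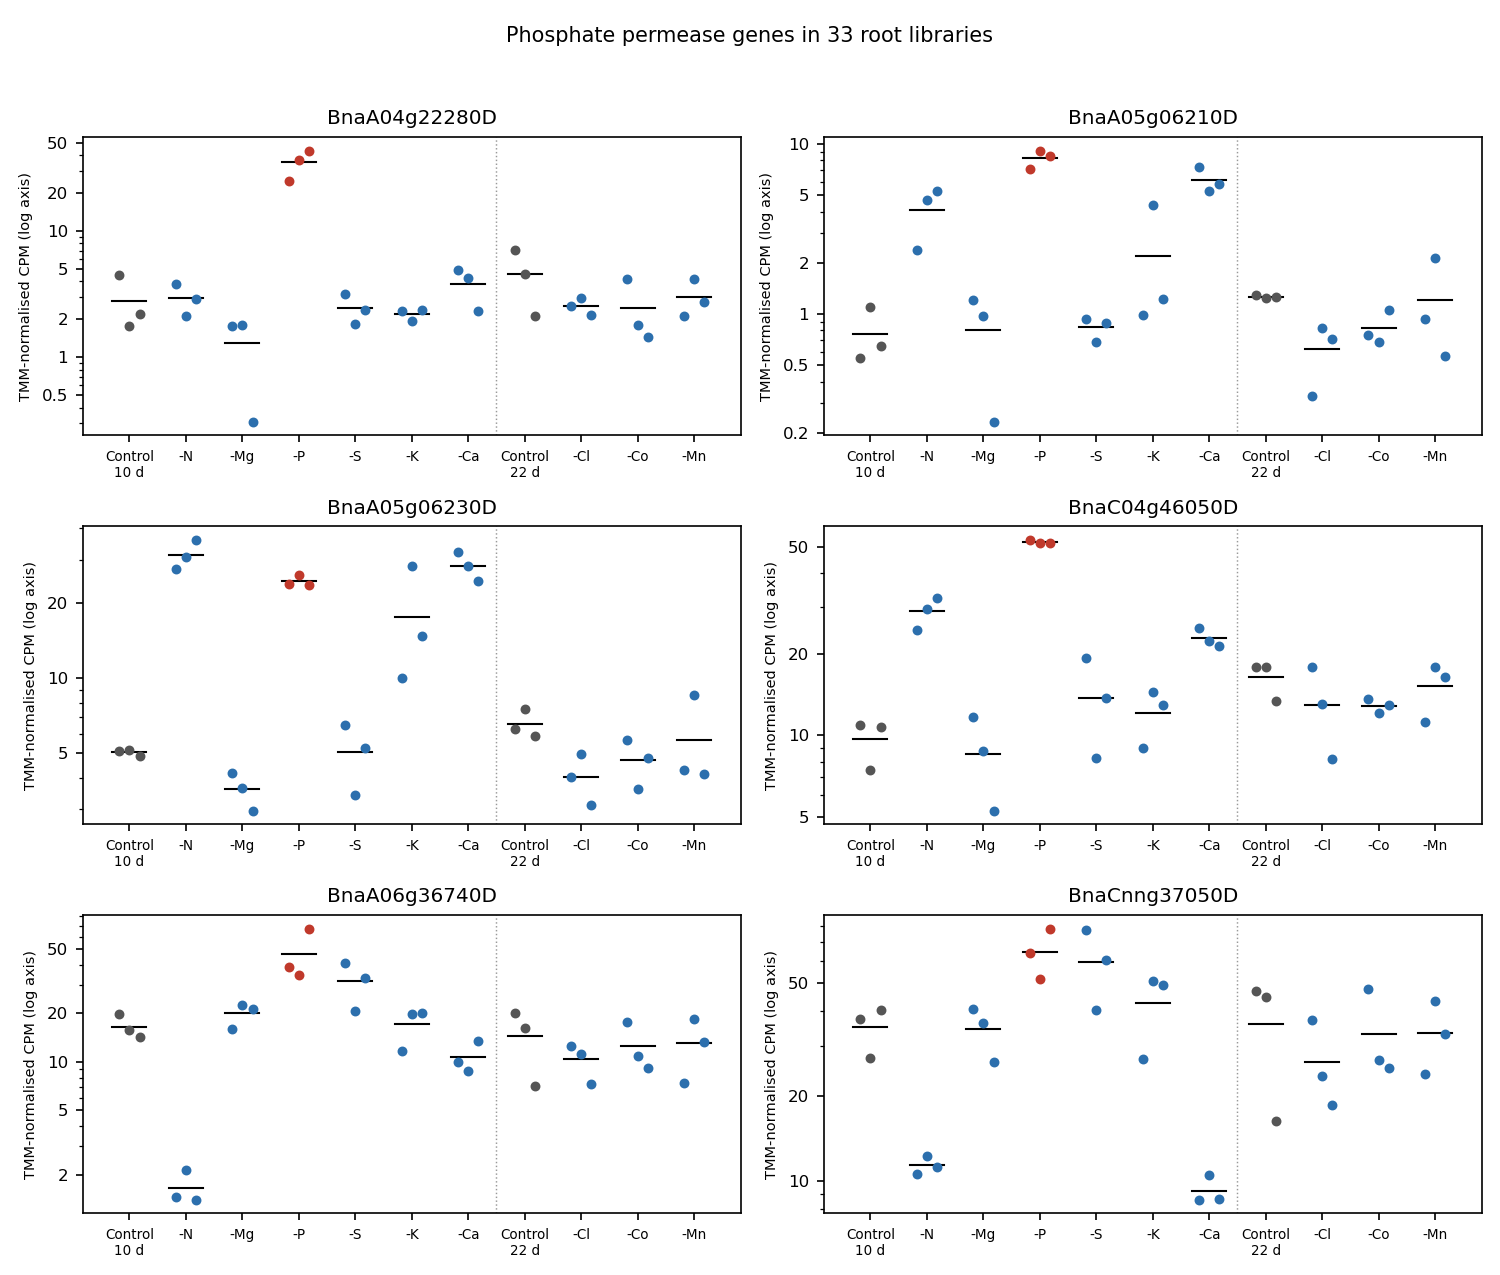
TMM-normalised CPM (log axis) of 6 phosphate permease genes in the 33 libraries, drawn as 3 points for each condition with a line at the mean. Controls are grey, P deprivation red and the other deprivations blue. BnaA04g22280D is high only without P, BnaA05g06210D, BnaA05g06230D and BnaC04g46050D also without N and Ca, and BnaA06g36740D and BnaCnng37050D are low without N.

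BnaA06g36740D and BnaCnng37050D went opposite ways under N and P deprivation. BnaA06g36740D stood at 19.8, 15.8 and 14.2 CPM in the controls, at 1.44, 2.14 and 1.397 CPM without N and at 39.1, 34.4 and 67.2 CPM without P, log2 fold changes of -3.30 ± 0.34 and 1.5 ± 0.28. It was also called higher without S (41.2, 20.8 and 32.99 CPM, 0.95 ± 0.28), a call lost without any of 4 libraries (replicates 2 and 3 of the controls, replicates 1 and 3 of S deprivation). Without Mg, K and Ca it gave 16.04, 22.6 and 21.4, then 11.7, 19.9 and 20.1 and 10.1, 8.74 and 13.5 CPM. All 3 N libraries were below each of the other 18 libraries at 10 days, and at 22 days the gene stood at 20.2, 16.3 and 7.07 CPM in the controls, 12.6, 11.2 and 7.303 without Cl, 17.7, 10.9 and 9.16 without Co and 7.37, 18.5 and 13.3 without Mn.

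BnaCnng37050D gave 10.6, 12.3 and 11.2 CPM without N and 8.605, 10.5 and 8.69 without Ca, both below the 37.5, 27.2 and 40.2 CPM of the controls (-1.61 ± 0.26 and -1.90 ± 0.27 on the log2 scale). Without P it gave 64.1, 51.6 and 78.04 CPM, above the controls (0.88 ± 0.25), and this call was lost without control replicate 2 (0.76) and without P replicate 3 (0.73). With 77.3, 40.4 and 60.5 CPM the libraries without S overlapped those without P and were not called (0.77 ± 0.25). Without Mg and K it was at 40.6, 36.3 and 26.3 CPM and 26.96, 51.1 and 49.5 CPM, and at 22 days at 47.1, 44.7 and 16.3 in the controls, 37.2, 23.5 and 18.5 without Cl, 47.7, 26.7 and 25.03 without Co and 23.9, 43.3 and 33.1 without Mn. The third 22-day control was the lowest of its group for both genes.

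BnaA03g18250D was detected almost only without N. It had 1.87, 2.66 and 3.55 CPM there and 0 counts in each of the other 18 libraries at 10 days, so it was at least 11.5-fold higher than in the controls, taking 3 counts in each control library as the floor. At 22 days a single count (0.0501 CPM) was found in replicate 3 of Co deprivation and 0 in the other 11 libraries. With DESeq2 the gene was not called under N deprivation. BnaC04g06470D was also highest without N, at 1.53, 2.34 and 1.63 CPM against 0.627, 0.253 and 0.288 CPM (2.22 ± 0.46), with means of 0.839 CPM without P and 0.539 without Ca. All its other condition means were between 0.144 and 0.492 CPM.

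BnaA02g22250D gave 0.8496, 1.36 and 1.45 CPM without N and 0 counts in every library without P, against 0.0784, 0.169 and 0.647 CPM in the controls. The log2 fold change was 1.98 ± 0.53 without N (a call lost without control replicates 1 or 2 or N replicate 3, and 3.27 without control replicate 3). Without P the gene was called lower. The controls held only 1, 2 and 9 counts, so no bound is given for the fold without P. The high control was replicate 3, and the P call was lost without it. In the other 10-day libraries it gave 0.0706, 0.0461 and 0.0774 CPM (Mg), 0.117, 0.0971 and 0.136 (S), 0.151, 0.143 and 0 (K) and 0.256, 0.105 and 0.193 (Ca). All of these were at 3 counts or fewer, and at 22 days the values were 0.361, 0.218 and 0 in the controls, 0 in all Cl and Co libraries and 0.143, 0.178 and 0 without Mn.

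BnaC03g18410D was lower without P, at 0.226, 1.45 and 0.593 CPM against 21.5, 8.94 and 1.29 CPM in the controls, a log2 fold change of -3.77 ± 1.07. Replicate 2 of P deprivation lay above the lowest control, and the call was lost without control replicate 1 (-2.72), P replicate 1 (-3.35) or P replicate 3 (-3.62), while without P replicate 2 the value was -4.65. The other 10-day values were 8.07, 7.72 and 4.19 CPM without N, 0.283, 4.47 and 2.86 without Mg, 0.4095, 8.35 and 3.14 without S, 13.6, 3.07 and 17.4 without K and 2.13, 2.002 and 1.42 without Ca. Within every condition at 10 days except Ca and N deprivation the highest library exceeded the lowest by more than 4-fold. At 22 days it stood at 39.9, 37.4 and 12.6 CPM in the controls, 3.77, 47.5 and 57.7 without Cl, 8.81, 7.98 and 1.85 without Co and 4.51, 8.02 and 18.9 without Mn.

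BnaA09g34510D, the permease gene that never reached a condition mean of 1 CPM, was at the floor without N (0.08496, 0 and 0 CPM) and without P (0, 0.218 and 0.0741 CPM). Against 0.627, 0.759 and 1.01 CPM in the controls it was at least 3.83-fold lower without N and at least 3.59-fold lower without P. Libraries without Mg (0.0706 to 0.369 CPM), S (0.0585 to 0.409) and Ca (0 to 0.369) also lay wholly below the controls, without a call. Those without K overlapped the controls. The P call was lost without control replicate 3 or P replicates 1 or 3. Its highest mean was 0.981 CPM, without K.

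Of the 10 genes with SPX and EXS domains, the family of PHO1, P deprivation had 5 called higher and none lower. N deprivation had 1 called lower, Mg deprivation 2 called higher, and Ca deprivation 2 called higher with 1 lower. BnaA07g24450D rested on few counts outside P deprivation: it gave 3.54, 2.18 and 0.889 CPM without P and 0.235, 0 and 0.0719 CPM in the controls, which were at the floor, so it was at least 9.39-fold higher. The values were 0.425, 0.1298 and 0.291 CPM without N, 0.636, 0.0923 and 0.155 without Mg, 0.293, 0.583 and 0.341 without S, 0.151, 0 and 0.0765 without K and 0.426, 0.369 and 0.515 without Ca. Later, at 22 days, they were 0.0722, 0 and 0.314 CPM in the controls, 0.397, 0.247 and 0.218 without Cl, 0.0683, 0.258 and 0.3004 without Co and 0.0716, 0.297 and 0.0812 without Mn. The 3 P libraries spread widely, and the lowest of them was close to the highest library with P.

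BnaA02g35630D stood at 3.47, 2.32 and 2.59 CPM without P against 0.0784, 0.337 and 0.0719 CPM in the controls (4.08 ± 0.51, and 5.09 without control replicate 2). Without Ca it gave 0.596, 0.579 and 0.386 CPM (1.69 ± 0.59), a call lost without control replicates 1 or 3 or Ca replicates 1 or 2, and with a value of 2.69 without control replicate 2. Its other values were 0.08496, 0.195 and 0.291 CPM (N), 0.565, 0.231 and 0.232 (Mg), 0.293, 0.0971 and 0.205 (S) and 0.606, 0.286 and 0.2295 (K). The controls held 1, 4 and 1 counts, so the folds under P and Ca deprivation rest on few control counts. Control replicate 2 was the highest of the 3 controls, and at 22 days the gene gave 0.867, 0.145 and 0.157 CPM in the controls, 0.198, 0.0825 and 0 without Cl, 0.137, 0.343 and 0.501 without Co and 0.143, 0.238 and 0.244 without Mn.

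BnaC06g30370D was higher without P (147, 95.7 and 89.1 CPM against 43.8, 19.1 and 38.03 CPM, 1.71 ± 0.32). Its lowest P library was below replicate 1 of Mg deprivation, which with the other Mg libraries gave 98.8, 46.4 and 49.4 CPM. Without N it stood at 36.2, 36.7 and 52.7 CPM, without S at 50.1, 45.8 and 61.97, without K at 18.9, 28.8 and 23.03 and without Ca at 46.2, 61.9 and 55.6. The 22-day values were 42.3, 39.5 and 40.2 CPM in the controls, 37.01, 29.9 and 27.1 without Cl, 30.99, 40.1 and 79.2 without Co and 30.3, 34.7 and 35.7 without Mn, with replicate 3 of Co deprivation above the rest.

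BnaC01g30800D and BnaA01g23840D had almost the same profile and were the members called under Mg deprivation. BnaC01g30800D gave 176, 135 and 122 CPM without P, 156, 126 and 159 without Mg and 104, 67.03 and 81.1 in the controls (0.78 ± 0.18 and 0.81 ± 0.18 on the log2 scale). BnaA01g23840D gave 198, 152 and 135 CPM without P, 188, 119 and 144 without Mg, 129.7, 124 and 143 without Ca and 108, 68.9 and 87.8 in the controls (0.87 ± 0.18, 0.77 ± 0.18 and 0.60 ± 0.18). The P and Mg ranges of each gene overlapped. Both Mg calls were lost without control replicate 2 or Mg replicates 1 or 3, and the Ca call of BnaA01g23840D without control replicates 2 or 3 or Ca replicate 3. Under N, S and K deprivation the means of BnaC01g30800D were 68.8, 87.1 and 76.3 CPM, and those of BnaA01g23840D were 95.8, 105 and 94.99 CPM.

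BnaA08g19850D was lower without N (0.255, 0.584 and 0.175 CPM, -2.39 ± 0.70) and without Ca (0, 0.211 and 0.0644 CPM, -3.99 ± 0.84) than in the controls (1.49, 2.36 and 1.65 CPM). The Ca libraries held 0, 4 and 1 counts and the N libraries 3, 9 and 3, so both values rest on few counts. The N call was lost without control replicate 2 or N replicates 1 or 3 and was at -3.07 without N replicate 2, and the Ca value was -5.33 without Ca replicate 2. Without Mg, P, S and K the libraries stood at 0.283, 0.969 and 0.464, then 0.302, 0.871 and 1.19, 0.234, 1.85 and 0.682 and 2.12, 0.643 and 1.84 CPM. At 10 days every library without N, Mg, P or Ca lay below the 3 controls, and those without S and K overlapped them. The 22-day libraries gave 0.795, 1.16 and 0.707 CPM in the controls, 0.595, 0.742 and 0.709 without Cl, 0.751, 0.258 and 0.3004 without Co and 0.358, 1.07 and 2.03 without Mn.

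Of the 4 genes of this family that were called nowhere, BnaC05g10300D had the widest range over the 33 libraries, 9.01 to 172 CPM. It gave 93.6, 112 and 32.8 CPM in the controls, 32.9, 24.9 and 19.4 without N (-1.61 ± 0.59), 11.2, 47.5 and 49.6 without Mg, 38.4, 69.03 and 61.1 without P, 9.01, 54.1 and 33.5 without S, 99.5, 33.2 and 95.9 without K and 55.2, 67.95 and 44.5 without Ca. In the 22-day libraries it gave 85.2, 85.6 and 50.6 CPM in the controls, 13.3, 145 and 172 without Cl, 43.4, 54.9 and 18.97 without Co and 29.2, 43.9 and 69.9 without Mn. The lowest library without Cl was below, and the other 2 above, all 22-day controls. BnaC08g39940D had means from 16.3 CPM (S) to 47.5 CPM (Ca) at 10 days, BnaA06g33780D from 1.38 CPM (Mg) to 5.402 CPM (K), and BnaC06g30650D from 0.367 CPM (Mg) to 1.55 CPM (Ca).

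The 3 major facilitator genes, members of a large superfamily of membrane transporters, differed in direction. BnaC07g34420D was far lower without P (0.302, 0.218 and 0.0741 CPM) and without Ca (0.256, 0.105 and 0.193 CPM) than in the controls (4.86, 2.78 and 2.37 CPM). The log2 fold change without P was -4.02 ± 0.54, and without Ca, where every library was at the floor, the gene was at least 16.5-fold lower. It stood at 7.22, 5.32 and 5.59 CPM without N, 4.59, 3.23 and 1.55 without Mg, 5.44, 5.25 and 5.59 without S and 1.29, 3.36 and 3.29 without K, and N and S libraries lay above all controls without a call. At 22 days it was at 9.25, 9.02 and 9.11 CPM in the controls, 11.1, 11.1 and 20.8 without Cl, 4.92, 5.92 and 9.61 without Co and 6.297, 8.49 and 9.59 without Mn.

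BnaC08g48150D followed BnaC07g34420D, with 4.52, 4.79 and 6.08 CPM without P and 7.33, 6.53 and 7.27 without Ca against 25.2, 16.4 and 15.3 CPM in the controls (-1.89 ± 0.17 and -1.41 ± 0.16 on the log2 scale). Without N it gave 29.3, 25.8 and 28.9 CPM (0.57 ± 0.16), and that call was lost without control replicates 2 or 3 or N replicate 3. Without Mg, S and K it gave 18.01, 15.5 and 15.02, then 17.5, 14.6 and 15.95 and 18.6, 19.6 and 21.7 CPM. The P libraries lay below every other 10-day library, and at 22 days the gene was at 45.3, 44.5 and 35.2 CPM in the controls, 28.02, 44.8 and 51.2 without Cl, 23.6, 21.9 and 32.7 without Co and 21.6, 26.4 and 29.2 without Mn.

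BnaC03g75450D was high without P (358, 224 and 209.8 CPM) and lower without N (29.5, 32.5 and 40.3 CPM) than in its controls, which ranged widely (44.1, 58.01 and 130.3 CPM). The log2 fold changes were 1.76 ± 0.40 and -1.18 ± 0.40. Without control replicate 3, the highest of the 3, they were 2.38 and -0.56, and the N call was lost, as it was without any 1 of the N libraries. Without Mg, S, K and Ca it gave 163, 68.9 and 93.7, then 67.2, 28.8 and 54.3, 47.9, 71.1 and 41.1 and 75.8, 92.98 and 105 CPM, and at 22 days 72.9, 77.5 and 52.9 in the controls, 85.4, 48.00 and 39.2 without Cl, 105, 84.1 and 101 without Co and 145, 131 and 70.8 without Mn.

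Both mitochondrial carrier genes were expressed in every library. BnaC09g43140D was called under P deprivation alone, at 87.7, 85.4 and 86.9 CPM against 32.7, 38.7 and 39.04 CPM in the controls (1.23 ± 0.15). The other 10-day libraries gave 38.6, 34.3 and 32.6 CPM (N), 33.9, 36.1 and 29.1 (Mg), 42.4, 36.04 and 38.7 (S), 40.7, 62.3 and 48.96 (K) and 30.8, 32.5 and 25.9 (Ca). The libraries without K lay above all controls without a call and below all those without P. At 22 days it gave 44.6, 41.97 and 29.7 CPM in the controls, 33.04, 40.4 and 34.9 without Cl, 43.6, 36.2 and 31.4 without Co and 36.4, 40.7 and 37.4 without Mn.

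BnaA06g19110D was called under S deprivation alone, where it was lower (0.585, 1.26 and 1.295 CPM against 2.74, 4.72 and 6.11 CPM, -2.14 ± 0.52). The call was lost without control replicates 2 or 3 or S replicates 1 or 3. It stood at 3.57, 2.08 and 3.08 CPM without N, 0.918, 2.21 and 1.55 without Mg, 3.996, 3.99 and 2.96 without P, 19.2, 5.72 and 6.66 without K and 7.24, 5.43 and 3.03 without Ca, and replicate 1 of K deprivation was the highest of all 33 libraries. At 22 days the gene gave 3.47, 5.89 and 3.14 CPM in the controls, 1.59, 6.19 and 7.85 without Cl, 3.004, 3.43 and 1.75 without Co and 1.07, 2.85 and 4.47 without Mn.

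The Cl, Co and Mn libraries ask whether the members also differed when an element outside the 6 macronutrients was withdrawn for 22 days. Of the 30 members 24 had enough counts to be tested, and 0 were called under Cl, Co or Mn deprivation by edgeR's quasi-likelihood test, as were 0% of the 54251 genes tested. At an unadjusted p under 0.05 by the same test there were 5 of the 24 members under Cl, 3 under Co and 2 under Mn deprivation. Of the 54251 genes tested, 2225, 5588 and 6326 were under that p in the same order. The likelihood ratio test of edgeR called 0 members in each, where it called 33, 77 and 182 of the 54251 genes tested. DESeq2 called 1 member under Cl deprivation and 0 under Co and Mn deprivation. Over all genes it called 36 of 59545 under Cl, 47 of 63971 under Co and 177 of 46289 under Mn deprivation. The 6 members not tested were BnaA03g18250D, BnaC04g06470D, BnaA02g22250D, BnaA09g34510D, BnaA07g24450D and BnaA02g35630D.

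The member that DESeq2 called was the glycosyl transferase gene BnaA03g00460D. It gave 20.4, 19.6 and 20.8 CPM without Cl against 30.8, 29.9 and 27.6 CPM in the 22-day controls, a log2 fold change of -0.56 ± 0.11. The 3 Cl libraries lay below all 3 controls, with an adjusted p of 0.811 in edgeR's quasi-likelihood test (unadjusted 0.000367) and 0.0374 in DESeq2. Over 17 fits its log2 fold change ran from -0.60 to -0.51 and its adjusted p from 0.0374 to 1. Without Co and Mn it gave 32.6, 27.2 and 30.5 and 25.5, 26.6 and 28.6 CPM. The other 3 glycosyl transferases were also lower without Cl by their estimates and were not called: -0.55 ± 0.55 for BnaA10g27550D, -1.18 ± 0.51 for BnaA10g27560D and -0.55 ± 0.30 for BnaCnng03870D. Of these BnaA10g27560D had all its Cl libraries below the controls in CPM. It held only 6, 4 and 7 counts without Cl and 13, 14 and 7 in the 22-day controls, so its value rests on few counts.

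The libraries without Cl lay wholly below the controls for 5 of the 24 members and wholly above for 2, where 4.0% and 5.19% of all genes tested did so. The 5 were BnaA03g00460D, BnaA10g27560D, the permeases BnaA05g06230D (4.03, 4.95 and 3.11 against 6.28, 7.56 and 5.89 CPM, -0.74 ± 0.29) and BnaA05g06210D (-1.05 ± 0.48), and the SPX and EXS gene BnaC06g30370D (-0.40 ± 0.27). The 2 were BnaC07g34420D (0.64 ± 0.29) and BnaC01g30800D (0.18 ± 0.15). None was called by the quasi-likelihood test. Over the 24 members the log2 fold change ran from -1.18 to 0.64 with a median of -0.31, beside a median near 0 (0.0048) over all genes tested.

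Under Co deprivation the libraries lay below the controls for 6 of the 24 members and above for 3, against 11.2% and 10.7% of all genes tested, and under Mn deprivation below for 3 and above for 1, against 10.6% and 10.0%. BnaC08g48150D was below its controls in both: 23.6, 21.9 and 32.7 CPM without Co and 21.6, 26.4 and 29.2 without Mn, against 45.3, 44.5 and 35.2 CPM (-0.65 ± 0.23 and -0.67 ± 0.23). It was not called in either (edgeR quasi-likelihood test, adjusted p = 0.473 and 0.377, and over all fits 0.171 to 0.723 and 0.183 to 0.955). BnaC03g18410D had the lowest log2 fold change of the members, -2.27 ± 0.87 without Co (edgeR adjusted p = 0.473, over all fits 0.155 to 0.723), with every Co library below every control. The permeases BnaA05g06230D (-0.46 ± 0.29) and BnaA05g06210D (-0.56 ± 0.46) also lay wholly below the controls without Co, as they did without Cl, and were not called. BnaC03g75450D was the highest under Mn deprivation (0.79 ± 0.31, edgeR adjusted p = 0.394, over all fits 0.230 to 0.955), and its libraries overlapped the controls. The medians over the 24 members were -0.36 under Co and -0.12 under Mn deprivation, beside 0.0060 and -0.0042 over all genes tested. The Cl, Co and Mn contrasts share their 3 controls, so these values are not independent of each other.

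**Figure D4:**
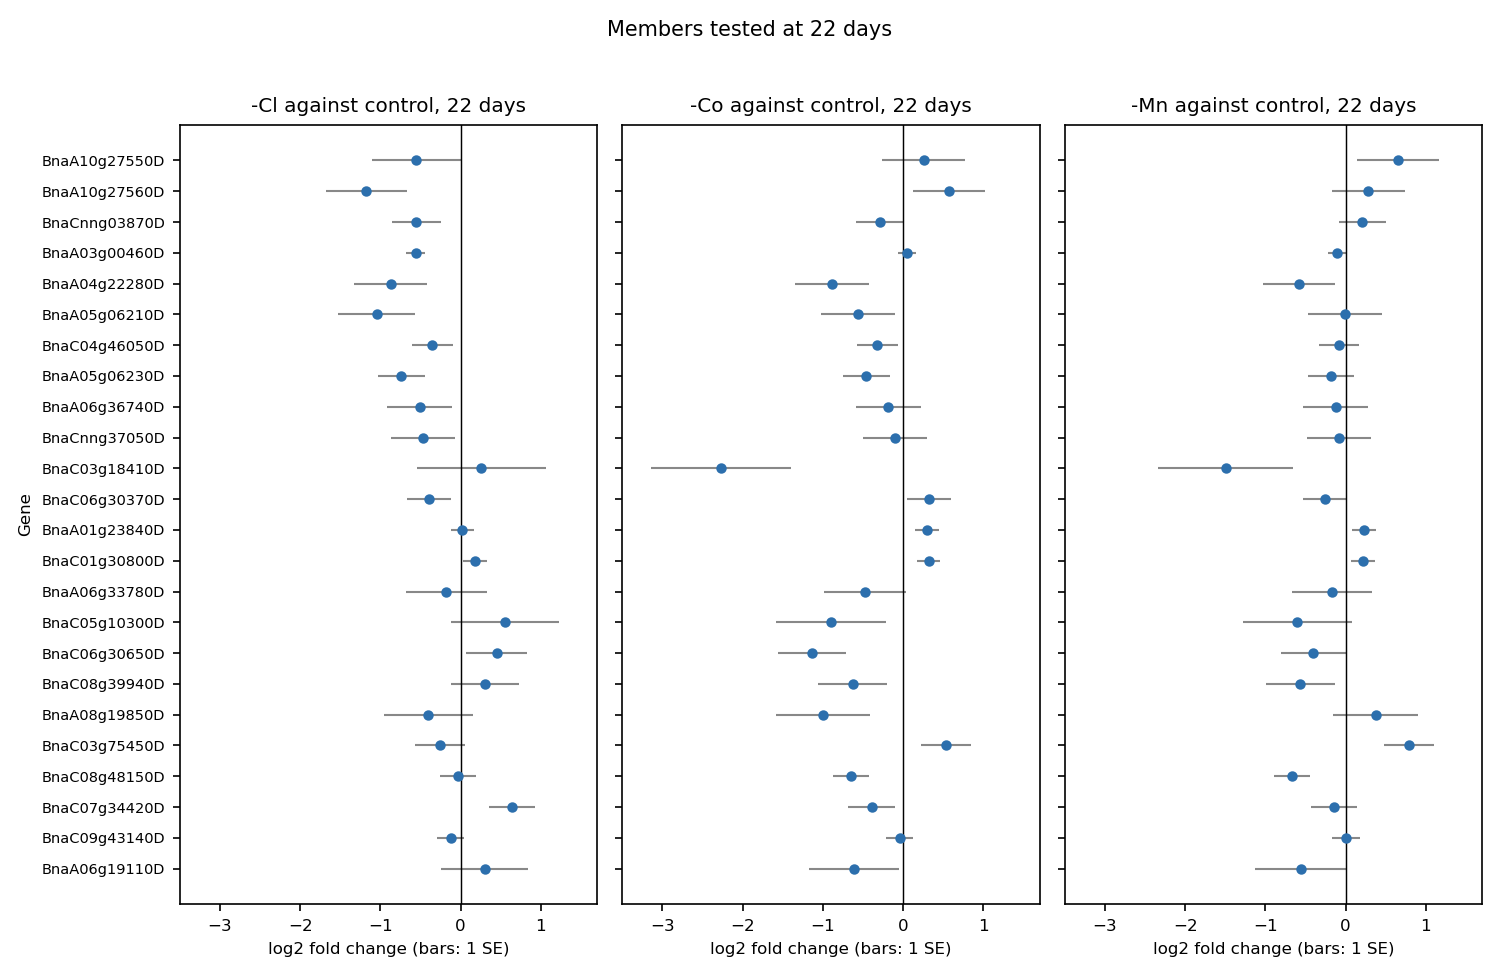
Log2 fold change (points) and 1 standard error (bars) of the 24 members tested at 22 days, for Cl, Co and Mn deprivation against the 22-day controls. The farthest point from zero is BnaC03g18410D without Co at -2.27.

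Between the control libraries of the 2 times, which differ in plant age and in time on the solution alike, 2 members were called, both higher at 22 days, where 0.372% of the 57501 genes tested were higher. They were the major facilitator genes BnaC08g48150D (45.3, 44.5 and 35.2 CPM at 22 and 25.2, 16.4 and 15.3 CPM at 10 days, 1.13 ± 0.20) and BnaC07g34420D (9.25, 9.02 and 9.11 and 4.86, 2.78 and 2.37 CPM, 1.45 ± 0.35). The groups did not overlap for either gene. The first call was lost without 10-day control replicate 3, and the second without any 1 of 10-day control replicates 2 and 3 and the 3 controls of 22 days.

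Likeness between members was described with Pearson's r of log2(CPM + 0.5), over the 11 condition means and over the 33 libraries after the mean of their condition was subtracted. All values share the libraries and their scaling, so r is given as a description. The glycosyl transferases were chosen as specific to P deprivation, which by itself favours high r between their condition means. Over condition means the 6 pairs of glycosyl transferases had r from 0.974 to 0.990, and the other pairs of the 435 were at 0.959 or less. BnaCnng03870D was next closest to the permease gene BnaA04g22280D (0.959) and the SPX and EXS gene BnaA02g35630D (0.953). Outside the glycosyl transferases the closest pairs were BnaC08g48150D with BnaC07g34420D (0.955), BnaC01g30800D with BnaA01g23840D (0.948) and BnaA05g06230D with BnaA05g06210D (0.942). Within conditions the last 3 pairs kept r of 0.601, 0.744 and 0.765, and the glycosyl transferase pairs ran from -0.03 to 0.628.

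Within conditions, 3 members stood closest to each other. The permease gene BnaC03g18410D and the SPX and EXS genes BnaC05g10300D and BnaC08g39940D had r of 0.941 to 0.948 over the 33 deviations, and of 0.529 to 0.684 over the 11 condition means. In each of the 11 conditions the same library was the lowest for all 3, among them control replicate 3 at 10 days, Mg replicate 1, S replicate 1, K replicate 2, Cl replicate 1 and Co replicate 3, where their mean deviation was -0.88 or lower. The mean deviation of the 3 genes was -2.05 in the Cl library, -1.39 in the S library and -1.32 in the control library, and the highest was 1.22, in S replicate 2. Among other members BnaC03g75450D ran against this mean (r = -0.83), and BnaA06g19110D had r = 0.610.

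These 3 genes were picked out after their values were seen. Of the 49918 genes with a mean of at least 1 CPM, 1056 (2.12%) had r of at least 0.9 with the mean deviation of the 3, 8.25% had at least 0.7 and 2.29% had -0.7 or less. For PsaH r was -0.27. Apart from the replicate number no label tells the low libraries from the others of their conditions.

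**Figure D5:**
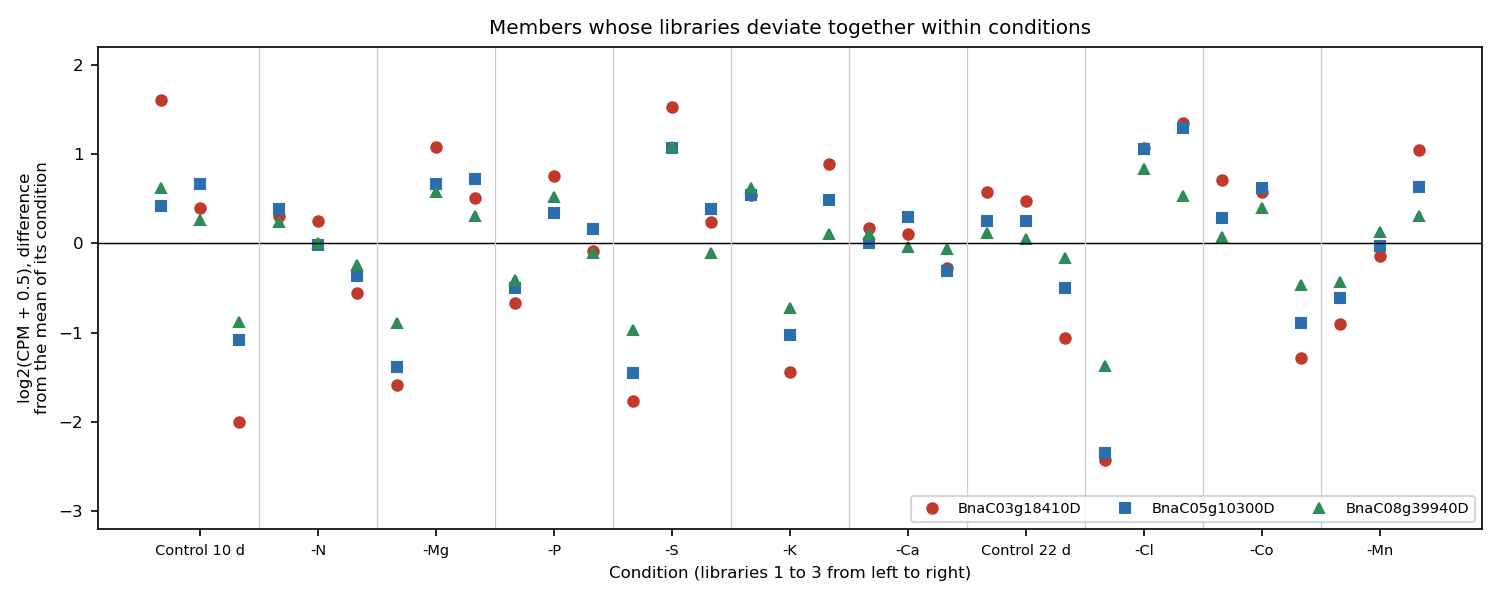
Difference of log2(CPM + 0.5) from the mean of its condition for BnaC03g18410D (red circles), BnaC05g10300D (blue squares) and BnaC08g39940D (green triangles), with the 3 libraries of each condition from left to right between the grey lines. The 3 genes are low in the same libraries, down to a mean of -2.05 in replicate 1 of Cl deprivation.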

How the data were processed

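Stranded mRNA libraries were sequenced in pairs by the authors, who trimmed low-quality sequence, used STAR with the Genoscope annotation V5 and deposited whole-number counts of unequivocally mapped read pairs for each gene and strand, without normalization. The column of the gene's strand was used. Library totals ran from 10115284 to 22841765 counts, and CPM were scaled by TMM over the 33 libraries. edgeR 4.0.16 in R 4.3.3 (filterByExpr, TMM, glmQLFit, glmQLFTest, 1 coefficient per condition) was fitted to all 21 libraries of 10 days, all 12 of 22 days, and all 33 for the controls of both times. Each standard error was derived from the log2 fold change and its F statistic. The fits were also run on simulated counts, with the same spread for all genes and changes only in genes with many counts. Members with few counts or a wide spread were not covered, and nothing is read from that run. Alternatives were the likelihood ratio test, DESeq2 1.42.0, other normalizations, filters, thresholds, libraries and strand settings, a replicate block and each library left out.

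The members and lists were chosen with earlier results of these data known. CPM in every library are given for the glycosyl transferases, for the members of each class with the largest absolute fitted log2 fold changes under P (4) and N (2) deprivation and a mean of at least 1 CPM in a condition, for members called in opposite directions under 2 deprivations, and for any called under Cl, Co or Mn deprivation. Values by library of further members were added where the text turns on them, after their values were seen. Identifiers of the members did not occur in the RefSeq gene table, so no sequence is given. Figures were drawn with matplotlib 3.10.9.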

Additional observations from a re-analysis of the deposited data

Results flagged for a closer look

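A signal on the strand opposite to a member was higher without Mn than in the controls of that time. At BnaC03g75450D the opposite strand held 50, 20 and 15 counts in the Mn libraries (mean 28.3) and 5, 12 and 1 in the 22-day controls, while the strand of the gene held 2020, 2198 and 872 counts and 1009, 1065 and 673 counts. The opposite strand also held 37, 24 and 6 counts without Co, and 3, 21 and 28 in the 10-day controls. The difference was not tested, and whether a gene is annotated on that strand is not known from the sources used here.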

How the results depend on the processing

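The counts of called members moved by more than 1.5 times under these alternatives. The likelihood ratio test called 4 members under Mg and 4 under S deprivation, and DESeq2 called 4 under S and 1 under Cl deprivation. Calls over all genes also rose in these fits. The likelihood ratio test gave 3251 under Mg (2026 in the quasi-likelihood test) and 6830 under S (5011). DESeq2 gave 6617 under S and 36 under Cl deprivation. A filter on CPM (above 1 in a minimum number of libraries) left 7 called members under N deprivation, where 10464 of the 49128 genes tested were called. The filter took genes out of the test: over all contrasts, the 37 calls of members that passed it were all kept. Fitting only the conditions compared gave 0 members under S, 0 under Mg and 0 under K deprivation and 0 between the controls of both times. A fit of all 33 libraries gave 1 under S deprivation. An adjusted p of at most 0.01 gave 0 under Mg and 0 under S deprivation and 1 between the controls, and a limit of 1 on the absolute log2 fold change gave 0 under Mg and 1 under S deprivation. Leaving out 1 library gave 8 to 12 members under N, 0 to 3 under Mg, 19 to 22 under P, 0 to 4 under S, 1 to 1 under K and 8 to 9 under Ca deprivation, 0 to 0 under Cl, Co and Mn deprivation, and 0 to 2 between the controls. The S count was 0 without control replicates 2 or 3 or S replicates 1 or 3 and 4 without S replicate 2, and the Mg count 0 without control replicate 2 or Mg replicates 1 or 3.

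With the replicate number as a block, the count was 1 under S deprivation and 1 between the controls, and no other count of members moved by more than 1.5 times. The deviations of same-numbered libraries correlated at -0.40 to 0.44 over 63 pairs at 10 days (mean 0.0041). At 22 days they correlated at -0.08 to 0.45 over 18 pairs (mean 0.114). Libraries of different numbers gave -0.42 to 0.42 over 126 pairs at 10 days (mean -0.0017). At 22 days these gave -0.46 to 0.28 over 36 pairs (mean -0.054). Whether equal numbers mark a pairing was not tested. No called member changed direction in any fit. RLE normalization and counts without regard to strand kept all 50 calls, and no normalization moved the median log2 fold change of all genes by more than 0.1. The number of members with their highest 10-day mean without P was 15 under TMM and RLE alike. Differences under the floor of 0.138 to 0.291 CPM were not detectable at this depth.

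Calls over all genes moved more. Against 2026 genes under Mg, 715 under K, 372 between the controls and 0 under Cl, Co and Mn deprivation, the likelihood ratio test called 3251, 1470, 886, 33, 77 and 182, and DESeq2 called 1430 under K, 836 between the controls and 36, 47 and 177 under Cl, Co and Mn deprivation. Fitting only the conditions compared gave 6439 under N (11362 in the fit of all conditions), 34 under Mg, 71 under S (5011), 20 under K, 39 under Co, 1 under Mn and 0 between the controls. Without a filter there were 2 under Cl and 1 under Mn deprivation, with all 33 libraries 4 and 11, and with the block 2 under Mn. An adjusted p of at most 0.01 left 4916 (N), 522 (Mg), 9255 (P, of 16611), 550 (S), 260 (K), 8470 (Ca, of 15013) and 72 (controls). The fold limit left 5812 (N), 1151 (Mg), 7571 (P), 2422 (S) and 8178 (Ca). Leaving out 1 library gave 6404 to 12210 (N), 620 to 3658 (Mg), 10792 to 15728 (P), 645 to 7058 (S), 397 to 817 (K), 10716 to 14435 (Ca), 35 to 1469 (controls) and 0 under Cl, Co and Mn. Upper-quartile normalization changed the split of calls to 6822 higher and 5292 lower under N (from 5098 and 6264) and to 3416 and 2289 under S (from 2389 and 2622).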

Other observations

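The study's ion transport list holds 302 genes, of which 26 are the P transporters. Of the genes assigned to other elements 31 (11.2%) were called higher and 114 (41.3%) lower under P deprivation, where 15.1% and 14.3% of all genes tested were. Their median log2 fold change was -0.50, beside 0.82 for the P transporters (13 higher and 5 lower) and -0.04 for all genes tested. Under Ca deprivation 49 of them (17.8%) were higher and 120 (43.5%) lower, against 12.6% and 13.9% of all genes, and 5 and 4 of the P transporters. Under N deprivation 32 (11.6%) were higher and 83 (30.1%) lower, against 9.00% and 11.1% of all genes, and 7 and 5 of the P transporters. The list was drawn from genes called in these libraries, so the counts are a description. Its 38 S transporters had 10 (26.3%) higher and 14 (36.8%) lower under P deprivation. Under S deprivation 15 of them (39.5%) were higher and 1 (2.63%) lower, against 4.22% and 4.63% of all genes.

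BnaC08g45940D, annotated with an SPX domain and a RING zinc finger and not assigned to P transport, gave 11.0 to 27.4 CPM without P, 8.66 to 15.8 CPM without S and 15.1 to 63.6 CPM in the 10-day controls. At 22 days it ran from 16.3 to 25.4 CPM in the controls and from 33.1 to 40.4 CPM without Cl, which did not overlap. Without Co it ran from 21.2 to 28.8 CPM and without Mn from 24.1 to 32.3 CPM, both overlapping the controls. The Cl libraries lay wholly above the controls for 5.19% of all genes tested, and the quasi-likelihood test called no gene under Cl deprivation.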
